A study of Mus musculus with 4 samples.

Results

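The cells described here are the Malat1-retaining wells of the microglia plates, 98 of the 308 microglia plate wells that passed the depth limits and of 804 passing wells in the 4 plates of the series. Each well holds 1 sorted cell. A well was a member when it had at least 1000 counts outside the spike-in (ERCC) and mitochondrial rows, an ERCC share of counts under 50%, and at least 1000 CPM of Malat1 (CPM, counts per 1000000 endogenous counts). The summed counts of Slc40a1, Hmox1, Igf1 and Ccl8 had also to be under 3, or under 1000 CPM. The wells were thus chosen by measured levels of these 5 genes, whose levels, where given below, are a description only. It kept 76 of 157 passing wells of the plate without radiation (48.4%, exact binomial 95% interval 40.4% to 56.5%) and 22 of 151 of the plate with radiation (14.6%, 9.36% to 21.2%). The other passing wells were 57 and 51 with too little Malat1, here called Malat1-poor, and 24 and 78 past the limit on the 4 genes, here called 4-gene wells.

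Myeloid cells were sorted from the brains of Balb/C athymic nude mice (CAnN.Cg-Foxn1nu/Crl), a strain without a functional thymus, that carried lung cancer brain metastases, and their transcripts were counted by a plate-based single-cell method with unique molecular identifiers (UMIs). One plate was labelled microglia without whole brain radiation therapy (WBRT), tumor stage small. The other was labelled microglia with WBRT, d3 and 5 fractions of 2 Gy, tumor stage not stratified. The labels name no animals and do not say from what d3 is counted. Radiation, stage and plate cannot be told apart. With 1 plate per group there is no test across samples, wells of a plate are not replicates, and each difference below is one between these 2 libraries. In counts pooled over wells, fewer cells of a kind and less RNA per cell cannot be told apart.

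Microglia are the resident macrophages of the brain. They arise from the yolk sac, renew themselves locally and keep a profile of Tmem119, P2ry12 and Sall1 that blood-derived macrophages express little of. Malat1 is an abundant long noncoding RNA that stays in the nucleus. Interferons signal through Stat2 and Irf9, among other factors, and switch on antiviral genes and the antigen-presenting MHC class I genes, whereas p53 switches on Cdkn1a and Mdm2 after DNA damage.

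The gated wells of both plates were similar in depth, but not in every other quality measure. They held 492189 counts without WBRT and 136230 with WBRT, with medians of 5696 and 5835 counts and 2010 and 2149 genes per well. A single count was worth 2.03 and 7.34 CPM, and the limit that a count of 0 allows (3 counts over the group of wells) was 6.10 and 22 CPM. The median ERCC share was 5.34% without WBRT and 11.7% with WBRT, and the median mitochondrial share 9.49% and 8.93%. The ribosomal RNA gene Rn45s stood at 3554 and 20979 CPM. The part of these differences in the results was not tested.

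The gate lay in a continuum of Malat1 levels. The lowest Malat1 level inside it was 1053 CPM without WBRT and 1279 CPM with WBRT, and the highest level outside it 994 and 895 CPM. Between 750 and 1333 CPM there were 20 and 5 wells. On the limit for the 4 genes, the highest wells inside stood at 896 and 999 CPM (among wells with 3 or more counts) and the lowest outside at 1001 and 1018 CPM. Median Malat1 over gated wells was 2499 and 5592 CPM. The plot of wells by depth and Malat1 shows that part of the Malat1-poor wells are shallow, while wells of more than 10000 counts occur on both sides of the line.

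**Figure D1:**
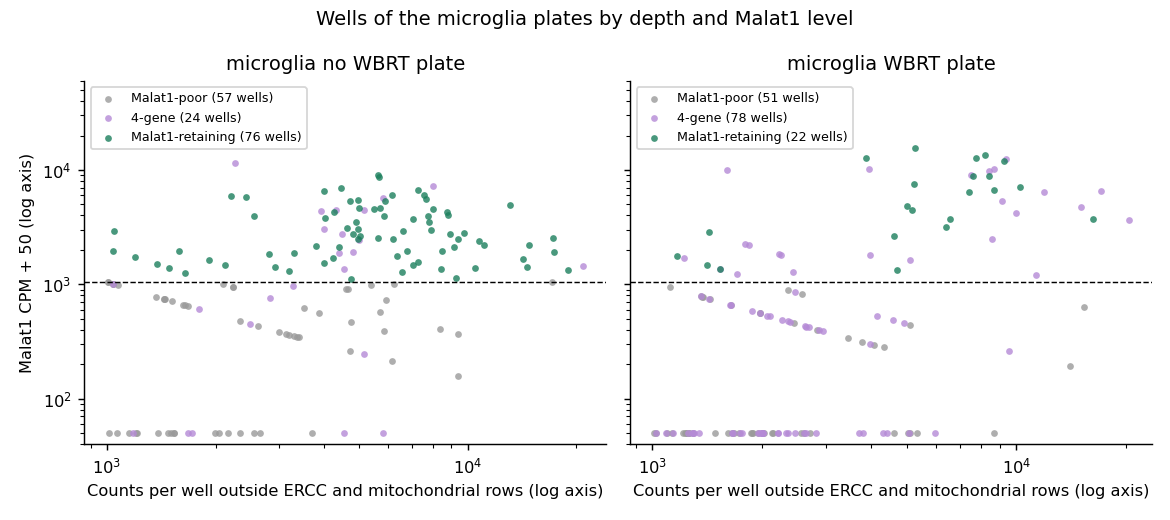
Counts per well (log axis) against Malat1 CPM + 50 (log axis) for all passing wells of the 2 microglia plates; the dashed line marks the limit of 1000 CPM. The 76 and 22 green wells are the Malat1-retaining ones, and points on the bottom row have no Malat1 count.

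The label was checked with 10 microglia markers, among them Tmem119, Sall1, P2ry13, P2ry12, Olfml3, Siglech, Gpr34, Cx3cr1 and Fcrls. At least 7 of the 10 were seen in 47 of 76 wells without WBRT and in 19 of 22 with WBRT. Their summed level had a median over wells of 8732 CPM (1373 to 16219) without WBRT and 10228 CPM (369 to 21276) with WBRT. With every well thinned to 1000 UMIs (0 wells were too shallow), a Tmem119 UMI was found in 46.1% and 45.5% of gated wells (82.9% and 90.9% unthinned). In the Malat1-retaining wells of the plates labelled BMDM (bone marrow-derived macrophages) it was found in 6.32% and 11.5% (23.7% and 49.4% unthinned), at median depths of 4006 and 9798 counts. Ccr2, the chemokine receptor of blood monocytes, had 0 counts in the gated wells of both plates. The markers thus bear out the label for most of these wells, with 5 exceptions.

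One well with WBRT carried astrocyte RNA. It held 772 counts of the 10 astrocyte genes, 47528 CPM, while the highest other gated well with WBRT held 855 CPM. Its microglia markers summed to 369 CPM, the lowest value of its group, and its 16251 counts were 11.9% of all gated counts with WBRT. One well without WBRT had 103250 CPM of MHC class II genes, against at most 4409 CPM in the others of its group, and a microglia marker sum of 1373 CPM. Fewer than 3 of the 10 markers were seen in 2 further wells without WBRT and 1 with WBRT, and the latter had 100052 CPM of the noncoding RNA Kcnq1ot1. Beside values below that one of the first pair of wells moved most, the value without that well is given too. Over all gated wells, the list sums of other cell types were as follows. Monocyte genes summed to 161 and 73.4 CPM, dendritic cell genes to 303 and 367 CPM, border-associated macrophage genes to 293 and 132 CPM, neutrophil genes to 321 and 602 CPM, and astrocyte genes to 128 and 5817 CPM (167 CPM without the marked well). T and NK cell, B cell, neuron and erythroid lists each stayed under 30 CPM. Sums for oligodendrocyte genes were 81.3 and 338 CPM (150 CPM without the marked well), for endothelial genes 71.1 and 58.7 CPM, for pericyte and fibroblast genes 6.10 and 73.5 CPM (0 without the marked well), and epithelial genes had 0 counts.

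With WBRT, the gated wells had lower levels of interferon response and MHC class I genes and of many lysosomal and disease-associated genes, and higher levels of single genes such as the microglia receptor P2ry12, the p53 target Cdkn1a and the NF-kappaB inhibitor Nfkbid. Among 4518 genes of at least 50 CPM in 1 of the 2 groups, 22.1% were at least 2-fold higher with WBRT (997 genes) and 12.3% at least 2-fold lower (554 genes), on the scale of CPM + 5, which understates differences of low genes. When the Poisson intervals of the 2 levels were also required not to overlap, 12.3% (556 genes) and 6.29% (284 genes) were left. The median log2 ratio over all tested genes was 0.22, and list medians below are read against it. Counts of called list members below are likewise read against the shares of 22.1% and 12.3%, and some lie near them. With TMM scaling factors it was -0.15, and the split of called genes was 610 higher and 859 lower, although of the 23 gene lists described here only the heat shock list changed the sign of its median. All intervals are 95% and cover counting error only.

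**Figure D2:**
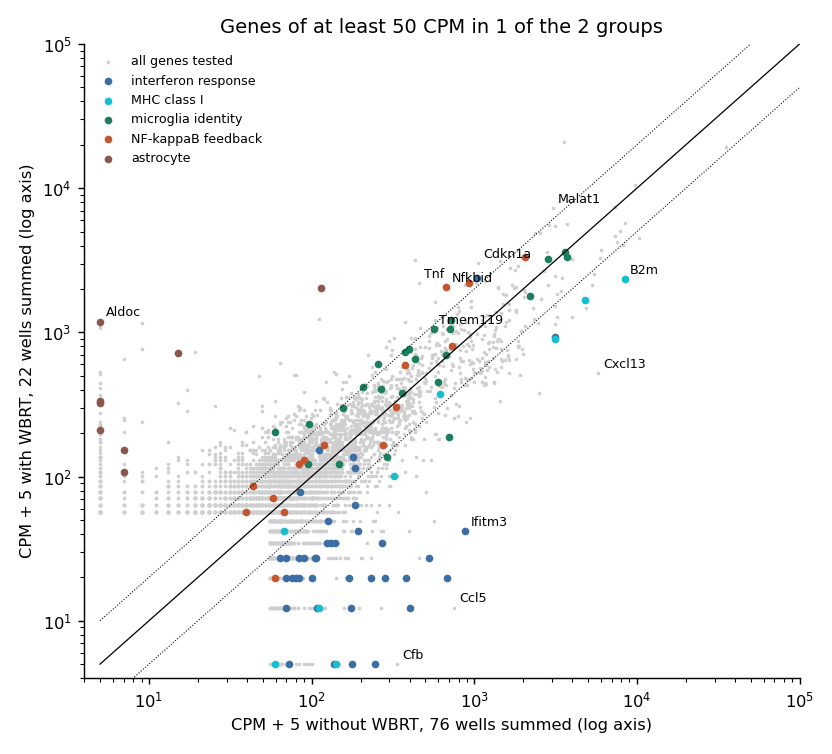
Level of each tested gene without WBRT (horizontal, 76 wells summed) and with WBRT (vertical, 22 wells summed), as CPM + 5 on log axes; the solid line marks equal levels and the dotted lines 2-fold. Most interferon genes (38 of 40) and all 9 MHC class I genes lie below the line. Above it lie 11 of 15 NF-kappaB feedback genes and 2660 of all 4518 tested genes. The astrocyte genes at the left come largely from 1 well.

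The identity of the cells came first. Of 23 tested microglia identity genes, 4 were at least 2-fold higher with WBRT, 2 at least 2-fold lower and 17 in between, with a median log2 ratio of 0.58. Of all tested genes, 22.1% were at least 2-fold higher and 12.3% at least 2-fold lower. Without the astrocyte-marked well, 8 were at least 2-fold higher and 1 lower, with a median of 0.76, beside 21.6% of all 4466 genes then tested that were higher and 12.9% that were lower. Tmem119, a membrane protein of homeostatic microglia (chr5:113793729-113800396, GRCm38.p6), had a lowest, median and highest well level of 0, 459 and 2566 CPM without WBRT and 0, 981 and 2833 CPM with WBRT. The ranges overlapped and the pooled level was 557 against 1051 CPM, 1.89-fold higher with WBRT (1.53 to 2.32). The share of thinned wells with a Tmem119 UMI, given above, was nearly equal in both plates. The purinergic receptors P2ry12, which steers microglial processes towards ATP, and P2ry13 were 1.98-fold (1.53 to 2.54) and 1.94-fold (1.51 to 2.47) higher. Siglech, a sialic acid-binding receptor, stood at 250 and 595 CPM, Fcrls at 91.5 and 228 CPM, and Mertk, a receptor for dying cells, at 54.9 and 198 CPM.

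Other identity genes differed less or were lower. Sall1, the transcription factor that keeps microglial identity, stood at 142 and 117 CPM, with a fold of 0.826 (0.448 to 1.44). In pooled counts, the fractalkine receptor Cx3cr1 was 1.23-fold lower with WBRT (1.07 to 1.42) and the growth factor receptor Csf1r 1.12-fold lower (1.01 to 1.25). These folds include the astrocyte-marked well, which held 11.9% of the gated counts with WBRT. The median well of Csf1r went the other way, at 3644 CPM without WBRT and 3883 CPM with WBRT. For Csf1r, 14 of 22 wells with WBRT lay above the median of those without. For Cx3cr1 the well medians were 2364 and 1908 CPM, and 9 of 22 wells lay above the former. Aif1, the gene of the calcium-binding protein Iba1 used to stain microglia, was 3.80-fold lower (2.53 to 5.95), at 698 against 184 CPM. The receptor P2ry6, which senses UDP during phagocytosis, was 2.17-fold lower (1.32 to 3.76).

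Genes of blood-derived macrophages were few. Of the 20 genes in that list, 4 reached 50 CPM, and 2 of these were at least 2-fold higher with WBRT. The integrin subunit Itga4 stood at 26.4 CPM on 13 counts and at 154 CPM on 21 counts, 5.84-fold higher (2.79 to 12.7), and was at 356 and 270 CPM in the Malat1-retaining BMDM wells. Vim, an intermediate filament protein, was at 24.4 and 147 CPM, with 60.0% of the counts with WBRT in the astrocyte-marked well (66.7 CPM without it). Lyz2, which may share reads with its near-identical neighbour Lyz1, stood at 75.2 and 140 CPM here, while in the 4-gene wells it stood at 119 and 1659 CPM.

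Interferon response genes were lower with WBRT almost throughout. Of 40 tested genes, 35 were at least 2-fold lower with WBRT and 1 was at least 2-fold higher, beside 12.3% and 22.1% of all tested genes. The median log2 ratio of the list was -2.06 (-2.02 with genes at 0 set to their bound). The summed list had well levels of 3509, 10477 and 32266 CPM without WBRT and 800, 4679 and 12763 CPM with WBRT. Of the 22 wells with WBRT, 21 lay below the median of the wells without and 19 below their lower quartile, while 23 of the 76 wells without WBRT lay above the highest well with WBRT. The groups overlapped, with 1 well with WBRT above the median of the wells without.

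Ifitm3, a membrane protein that blocks the entry of enveloped viruses, had well levels of 0, 715 and 3184 CPM without WBRT and 0, 0 and 185 CPM with WBRT. Its pooled level was 870 against 36.7 CPM, 23.7-fold lower (10.1 to 73.3), and 52.2-fold lower (14.4 to 432) without the astrocyte-marked well. A UMI was seen in 90.8% of wells without WBRT and 13.6% with WBRT, and, after thinning, in 59.2% and in 0 of 22 wells, which allows a share of up to 15.4%. In the Malat1-retaining BMDM wells the share was 88.4% and 93.7%, and 66.3% and 51.7% after thinning. Ifi44, an interferon-induced protein, stood at 673 CPM on 331 counts without WBRT and had 2 counts with WBRT, 45.8-fold lower (12.6 to 380). The transcription factor Irf7, which amplifies interferon production, stood at 378 against 14.7 CPM on 2 counts, 25.8-fold lower (7.03 to 214). Ifit3, which binds other antiviral Ifit proteins, stood at 397 CPM against 1 count, 54.1-fold lower (9.57 to 2143).

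No count with WBRT was seen for 4 tested members of this list: Ly6a, Oasl1, Ifit2 and Rsad2. Against the floor of 3 counts over the group of wells, Ly6a, the stem cell antigen Sca-1, which has close paralogs that may share its reads, was at least 11-fold lower, the oligoadenylate synthetase-like gene Oasl1 at least 7.85-fold and Ifit2 at least 6.0-fold. Ifi27l2a, one of several similar interferon-induced genes, stood at 518 CPM against 3 counts that lay in 1 well. Not every member shared this. The signal transducers Stat2 (175 and 132 CPM) and Irf9 (106 and 147 CPM), which carry the interferon signal into the nucleus, differed by less than 2-fold, as did Cxcl10 (79.3 and 73.5 CPM, with 90.0% of the counts with WBRT in 1 well). The monocyte chemoattractant Ccl12 was the exception on the higher side, at 1034 and 2371 CPM. These 4 genes were singled out after their values were seen.

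Further genes low with WBRT lay outside that list. Complement factor B, Cfb (chr17:34856374-34862514), stood at 329 CPM on 162 counts in 47 wells without WBRT and had 0 counts with WBRT, at least 15-fold lower. The chemokine Ccl5, which attracts T cells, stood at 741 CPM against 1 count, 101-fold lower (18 to 4001). Helz2, a helicase and coactivator, was at 142 CPM against 0 counts and was thus at least 6.46-fold lower. Fgl2, a fibrinogen-like protein of activated macrophages, was at 262 CPM against 1 count, 35.7-fold lower (6.30 to 1421). The trafficking receptor Kdelr1, which returns proteins to the endoplasmic reticulum, was at 91.4 CPM against 0 counts and was thus at least 4.15-fold lower.

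The promoters of the interferon genes share a short motif, and 5 of them are shown to make it visible. The core of the interferon-stimulated response element, which Stat2, Irf9 and other factors bind, was searched as GAAA, 2 bases of any kind and GAAA again, on both strands and with overlaps allowed, in the RefSeq promoter table for GRCm38.p6 (250 bases before to 50 bases after each gene's start). On the other strand it reads TTTC, 2 bases and TTTC. It was found for 17 of the 28 tested interferon genes that have an entry (60.7%), for 3.99% of the 27025 genes in the table and for 4.39% of the tested genes with an entry. The 150 bases before the start of 5 genes follow, picked after their values were seen, with matches in capitals. A match is a description and not a site.

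Ifit3 (chr19:34583379-34583528, plus strand): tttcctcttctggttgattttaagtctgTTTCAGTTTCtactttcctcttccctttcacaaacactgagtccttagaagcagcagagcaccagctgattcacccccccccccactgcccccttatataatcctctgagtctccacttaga
Rsad2 (chr12:26456453-26456602, minus strand): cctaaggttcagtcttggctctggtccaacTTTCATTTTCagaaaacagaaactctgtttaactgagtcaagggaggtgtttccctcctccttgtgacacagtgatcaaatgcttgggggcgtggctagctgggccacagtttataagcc
Ifit1 (chr19:34640739-34640888, plus strand): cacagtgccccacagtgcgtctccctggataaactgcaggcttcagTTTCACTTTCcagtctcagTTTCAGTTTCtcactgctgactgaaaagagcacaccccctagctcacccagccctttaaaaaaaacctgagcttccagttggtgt
Gbp2 (chr3:142620513-142620662, plus strand): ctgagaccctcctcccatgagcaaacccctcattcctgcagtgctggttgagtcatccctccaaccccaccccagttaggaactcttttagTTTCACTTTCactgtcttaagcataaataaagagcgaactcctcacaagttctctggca
Isg15 (chr4:156200819-156200968, minus strand): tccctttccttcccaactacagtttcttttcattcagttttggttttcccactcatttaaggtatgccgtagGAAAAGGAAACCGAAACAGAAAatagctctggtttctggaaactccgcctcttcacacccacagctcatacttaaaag

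In Isg15 the 3 matches overlap in 1 run of tandem repeats, whereas Ifit1 has 2 separate matches, both read from the other strand. The levels of these genes differed by different amounts. Besides Ifit3, the antiviral enzyme gene Rsad2 stood at 67.1 CPM against 0 counts and was thus at least 3.05-fold lower. Ifit1 was 15.4-fold lower (4.15 to 128) on 2 counts and the guanylate-binding protein gene Gbp2 8.86-fold lower (1.48 to 361) on 1 count. The ubiquitin-like modifier gene Isg15 was 4.08-fold lower (1.51 to 15.5), at 120 against 29.4 CPM.

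MHC class I genes, which present peptides to cytotoxic T cells, were lower with WBRT, and the wells of the 2 plates hardly overlapped. Of 9 tested genes, 7 were at least 2-fold lower with WBRT and none was higher, beside 12.3% and 22.1% of all tested genes. The median log2 ratio of the list was -1.81 (-1.68 with genes at 0 set to their bound). The summed list had well levels of 9223, 17642 and 33032 CPM without WBRT and 1540, 5299 and 11542 CPM with WBRT. All 22 wells with WBRT lay below the median of the wells without, and 73 of the 76 wells without WBRT lay above the highest well with WBRT. B2m, the light chain of every class I molecule, had well levels of 3692, 8458 and 18877 CPM against 308, 2280 and 6419 CPM and was 3.62-fold lower (3.22 to 4.06). The groups overlapped little for B2m: 61 of 76 wells without WBRT stood above all wells with WBRT. Tap1, which carries peptides to class I molecules, stood at 136 CPM against 0 counts and was thus at least 6.18-fold lower. The class I genes H2-T23, at 106 CPM against 1 count, and H2-M3, at 54.9 CPM against 0 counts, resemble other class I genes, with which they may share reads.

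MHC class II genes depended on 1 well. Of 5 tested genes, 4 were at least 2-fold lower with WBRT, with a median log2 ratio of -2.69. The class II-rich well held 83.0% of the Cd74 counts without WBRT, 76.5% of the H2-Aa, 74.4% of the H2-Ab1 and 66.0% of the H2-Eb1 counts. Without it the median was -0.22. The median summed level over wells was 672 CPM without WBRT and 393 CPM with WBRT.

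**Figure D3:**
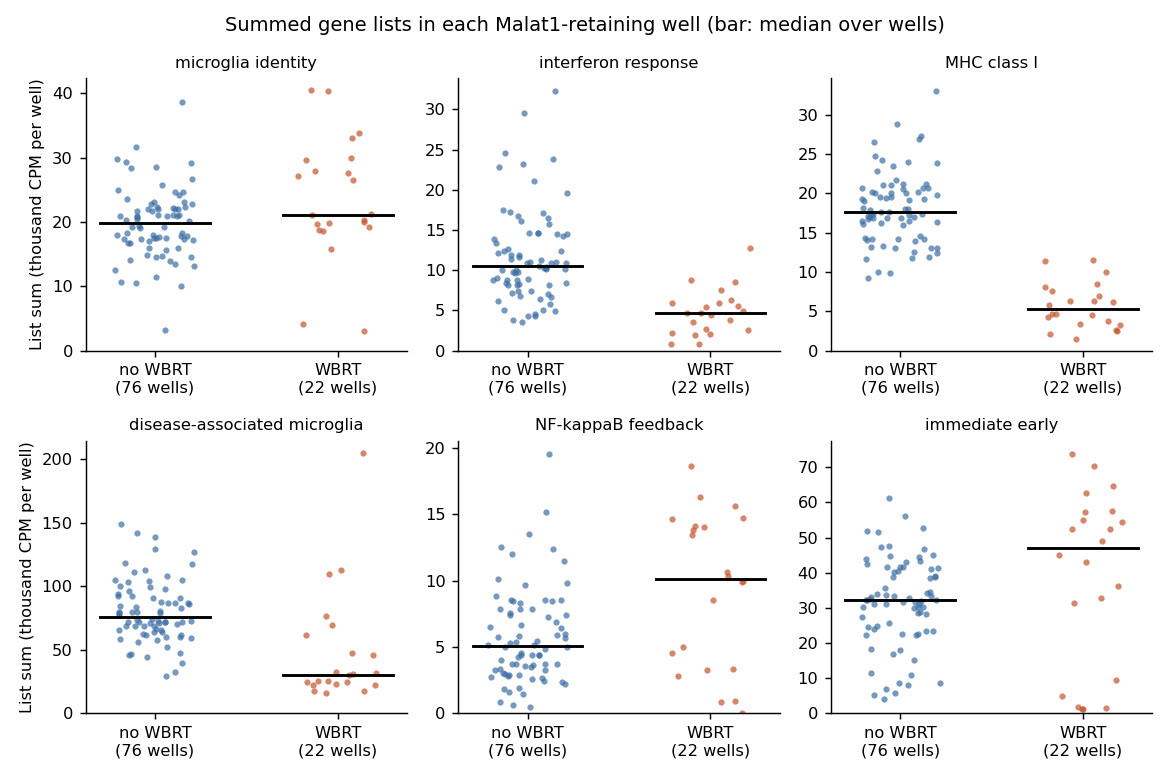
Summed level of 6 gene lists (in 1000 CPM) in each Malat1-retaining well, without WBRT (76 wells, blue) and with WBRT (22 wells, orange); bars are medians over wells. MHC class I sums hardly overlap, interferon and disease-associated sums are lower with WBRT, and immediate early and NF-kappaB feedback sums spread more widely with WBRT.

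Inflammatory cytokine and chemokine genes went in both directions. Of 16 tested genes, 4 were at least 2-fold higher with WBRT and 6 at least 2-fold lower, with a median log2 ratio of -0.34 (5, 5 and -0.11 over 17 genes without the astrocyte-marked well). Over all tested genes 22.1% were higher, a share near that of this list, and 12.3% lower. Cxcl13, the chemokine that draws B cells into follicles (chr5:95956939-95961068), had well levels of 0, 4865 and 29695 CPM without WBRT and 0, 163 and 5440 CPM with WBRT. It was 11.1-fold lower (8.80 to 14.4), at 5733 against 515 CPM. One well held 60.1% of its counts with WBRT, and without that well and the highest of the other plate its fold was 23. Cxcl13 stood at 4005 CPM in the Malat1-poor wells and 1801 CPM in the 4-gene wells with WBRT, both above its level in the gated wells. Tnf, a cytokine that sets off NF-kappaB signaling, had well levels of 0, 177 and 2618 CPM without WBRT and 0, 737 and 8897 CPM with WBRT. It was 4.87-fold higher (4.09 to 5.84), and 19 of 22 wells with WBRT lay above the median of those without. The monocyte chemoattractant Ccl7 was 5.78-fold higher (2.47 to 14.2) on 10 and 16 counts, with 68.8% of the latter in 1 well.

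NF-kappaB feedback genes, which NF-kappaB induces and many of which dampen it, had a median log2 ratio of 0.51. Of 15 tested genes, 2 were at least 2-fold higher and 1 at least 2-fold lower (4 and 1 of 16 without the astrocyte-marked well), and 11 had a ratio above 0. Of all 4518 tested genes, 22.1% were at least 2-fold higher and 12.3% lower, and 2660 had a ratio above 0. Nfkbid, a nuclear inhibitor protein of the family, had well levels of 0, 459 and 3138 CPM without WBRT and 0, 1507 and 6236 CPM with WBRT and was 3.08-fold higher (2.62 to 3.63). Nfkbiz, another nuclear member, was 2.37-fold higher (2.04 to 2.75), at 926 against 2193 CPM. Birc3, an inhibitor of cell death, stood at 38.6 and 80.7 CPM, with an interval of the fold that held 1 (0.899 to 4.63). Tnip1, which restrains NF-kappaB signaling, stood at 54.9 CPM against 2 counts, with a fold of 3.74 lower whose interval held 1 (0.939 to 32.4).

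Immediate early genes, many of them coding for transcription factors, are induced within minutes of a stimulus and also while tissue is dissociated. They had a median log2 ratio of 0.35. Of 22 tested genes, 2 were at least 2-fold higher with WBRT and none was 2-fold lower, beside 22.1% and 12.3% of all tested genes. Klf4 was 3.18-fold higher (2.55 to 3.95), at 370 against 1177 CPM. Jun, a subunit of the factor AP-1, was 2.05-fold higher (1.86 to 2.26), at 2368 against 4862 CPM, and Ier5 was 1.90-fold higher (1.59 to 2.25). Maff, a small Maf factor, stood at 146 and 80.7 CPM, with an interval of the fold that held 1. The summed list lay in separate ranges with WBRT: 6 of 22 wells lay below 10000 CPM and the other 16 between 31283 and 73786 CPM. Without WBRT, 7 of 76 wells lay below 10000 CPM. The low wells were mostly shallow in both plates: 5 of the 6 with WBRT and 6 of the 7 without had fewer than 5000 counts. So had 2 of the other 16 wells with WBRT and 27 of the other 69 without. The deeper low well with WBRT was the astrocyte-marked one. The median ERCC share of the low wells was 37.7% with WBRT and 19.3% without, against 10.7% and 5.19% in the others.

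Genes of the p53 response and DNA damage were higher with WBRT in level in the gated wells, although not all by 2-fold. All 9 tested genes had a log2 ratio above 0, and 3 of them were at least 2-fold higher (22.1% of all tested genes), with a median of 0.85. The other kinds of well did not all share this direction. The list median was -0.38 in the Malat1-poor, 0.30 in the 4-gene and -0.010 in the Malat1-retaining BMDM wells. Cdkn1a, the cell cycle inhibitor p21 (chr17:29090979-29100722), had well levels of 0, 794 and 7569 CPM without WBRT and 0, 1412 and 13063 CPM with WBRT. The ranges overlapped, and 14 of 22 wells with WBRT lay above the median of those without. It was 2.89-fold higher (2.53 to 3.29), at 1042 against 3012 CPM. In the other wells it stood at 651 and 1059 CPM (Malat1-poor), 1631 and 2331 CPM (4-gene), and 669 and 1233 CPM in the Malat1-retaining BMDM wells. Mdm2, which marks p53 for degradation, was 2.84-fold higher (1.74 to 4.59), and Pmaip1, the death-promoting protein Noxa, 2.25-fold higher (1.35 to 3.68). Trp53inp1 stood at 24.4 and 51.4 CPM on 12 and 7 counts, with a fold of 2.11 whose interval held 1 (0.703 to 5.81).

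Cell cycle genes were near the counting limit. Of 8 tested G2/M genes, 5 were at least 2-fold lower with WBRT and none was higher, with a median log2 ratio of -2.28 (-1.29 with genes at 0 set to their bound). Top2a, the topoisomerase of dividing cells, stood at 85.4 CPM on 42 counts in 19 wells against 0 counts and was thus at least 3.88-fold lower. The condensin subunit Smc4 and the mitotic kinase Cdk1 had 28 and 25 counts without WBRT and 0 with WBRT, and were at least 2.58-fold and 2.31-fold lower. Mki67, the proliferation marker Ki-67, stood at 59.0 CPM on 29 counts against 1 count, 8.04-fold lower (1.33 to 328), with 55.2% of the former in 1 well. Its log2 ratio was 0.18 when wells were thinned to 1000 UMIs. Of 10 tested S phase genes, 6 were at least 2-fold lower, with a median of -1.34, but only 2 of the 6 had intervals that do not overlap. A ratio above 0 was seen for 3 of the 10, among them Pcna (197 and 301 CPM) and Slbp (116 and 213 CPM). The replicative helicase subunit Mcm7 stood at 136 CPM against 2 counts, 9.28-fold lower (2.47 to 78.1), and 16.3-fold lower on 1 count (2.83 to 655) without the astrocyte-marked well.

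Among genes with at most 25% of the counts with WBRT in 1 well, a UMI in at least 15% of those wells and intervals that do not overlap, the highest ratios rested on few counts. Of 13 genes taken by rank, 8 had 2 to 6 counts without WBRT: Capn7, Cwc22, Ecscr, Kbtbd7, Lrba, Mrpl24, Prmt2 and Snhg9. Cwc22, a splicing factor, had 2 counts without WBRT and 12 with WBRT, 21.7-fold higher (4.83 to 199), and Lrba, a vesicle trafficking protein, had 4 and 16, 14.5-fold higher (4.66 to 59.4). Rhot1, which tethers mitochondria to their transport motors, had 17 and 27 counts and was 5.74-fold higher (3.02 to 11.2). Cyp27a1, a sterol hydroxylase, had 10 and 17 counts and was 6.14-fold higher (2.66 to 15).

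**Figure D4:**
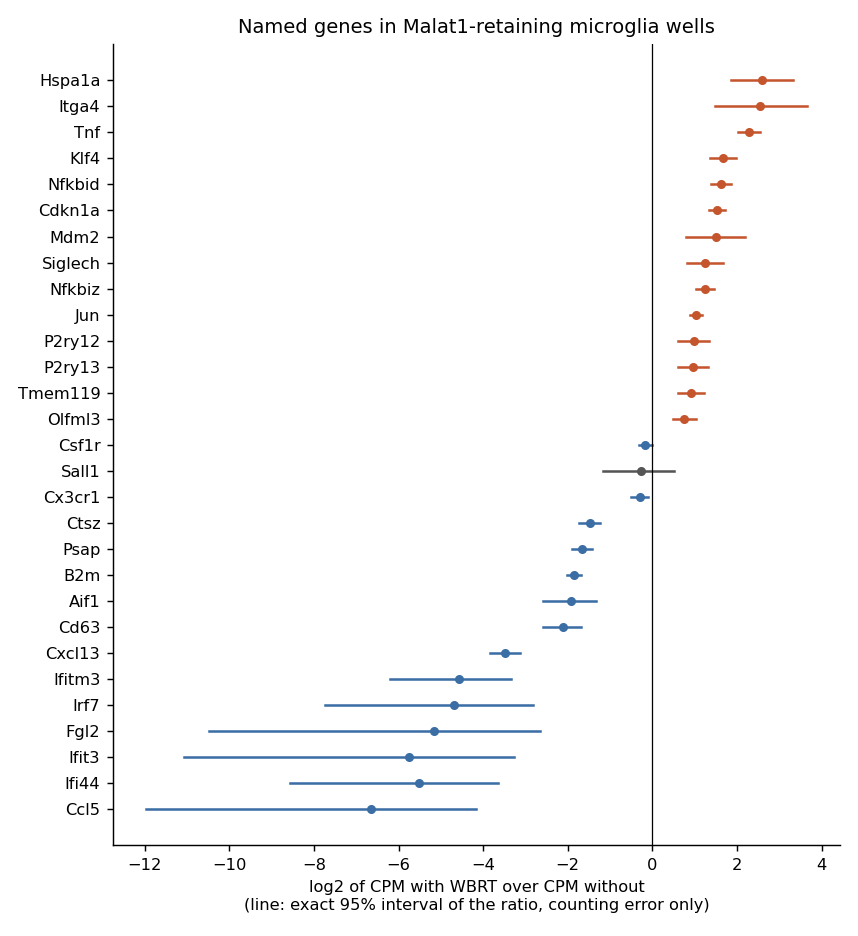
Ratio of CPM with WBRT to CPM without (log2 axis) for 29 named genes, with exact 95% intervals that cover counting error only; orange marks intervals above 0, blue below 0 and grey those that hold 0. Interferon genes and Ccl5 lie far to the left with wide intervals, Sall1 has an interval that holds 0, and Tmem119, P2ry12, Cdkn1a and Tnf lie to the right.

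Disease-associated microglia genes, a program of lipid handling and phagocytosis that microglia take up around damage, were mostly lower with WBRT in the gated wells. Of 21 tested genes, 9 were at least 2-fold lower and 2 at least 2-fold higher, beside 12.3% and 22.1% of all tested genes. The median log2 ratio of the list was -0.86. The summed list had well levels of 29387, 75776 and 149138 CPM without WBRT and 15778, 30495 and 204721 CPM with WBRT, and 17 of 22 wells with WBRT lay below the lower quartile of those without. Cd63, a tetraspanin of late endosomes, had well levels of 205, 1299 and 6725 CPM against 0, 211 and 2125 CPM and was 4.34-fold lower (3.21 to 6.0). Spp1, osteopontin, was 3.83-fold lower (3.00 to 4.99), at 1918 against 501 CPM, with 64.8% of the counts with WBRT in 1 well, and its log2 ratio was 0.37 over all passing wells. The integrin Itgax stood at 116 CPM against 1 count, 15.8-fold lower (2.72 to 634). Clec7a, a receptor for fungal glucans, went the other way, at 48.8 and 198 CPM, 4.06-fold higher (2.26 to 7.36). Apoe, the main lipid carrier of the brain, had well levels of 8299, 35565 and 81661 CPM without WBRT and 4903, 11897 and 157891 CPM with WBRT. Its pooled level was 35252 against 19431 CPM. With WBRT, 19 of 22 wells lay below the median of those without, while 1 well held 26.2% of the counts.

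Lipid, lysosomal and complement genes followed the same direction in part. Of 17 tested lipid genes, 4 were at least 2-fold lower and 3 higher, with a median of -0.69. Over all tested genes 22.1% were at least 2-fold higher, a larger share than of the lipid genes, and 12.3% at least 2-fold lower. The cholesterol exporter Abcg1 was 5.31-fold lower (2.36 to 14.8), at 234 against 44.0 CPM, and the apolipoprotein genes Apoc1 and Apoc2 were 7.2-fold (2.37 to 35.7) and 13-fold lower (2.22 to 525) on 3 and 1 counts with WBRT. Of 28 tested lysosome and phagocytosis genes, 6 were at least 2-fold lower and 1 higher, with a median of -0.52. Psap, the precursor of the saposins that help break down sphingolipids, had well levels of 907, 3831 and 13091 CPM against 324, 1122 and 4965 CPM and was 3.15-fold lower (2.70 to 3.71). The lysosomal protease Ctsz was 2.78-fold lower (2.36 to 3.31), and the inhibitory antibody receptor Fcgr2b 9.04-fold lower (3.00 to 44.6). Of 11 tested complement genes, 3 were at least 2-fold lower and 2 higher, with a median of -0.53. C3, the central complement protein, was 5.21-fold lower (2.15 to 16.4). C4b, which may share reads with its near-identical copy C4a, stood at 262 against 36.7 CPM with all 5 counts with WBRT in the astrocyte-marked well, without which it had 0 counts. The receptor C5ar1, which responds to the complement fragment C5a, was 2.22-fold higher (1.52 to 3.23).

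Metabolic genes lay lower by smaller amounts in the gated wells, but not in the other kinds of well. The oxidative phosphorylation median was 0.19 in the Malat1-poor, 0.12 in the 4-gene and 0.036 in the Malat1-retaining BMDM wells. The glycolysis and hypoxia median was 0.67, 0.37 and 0.52 in that order. In the gated wells, 8 of 33 tested nuclear-encoded genes of oxidative phosphorylation were at least 2-fold lower, beside 12.3% of all tested genes. None was at least 2-fold higher, and 32 had a ratio below 0, with a median of -0.57. Without the astrocyte-marked well 14 were at least 2-fold lower, with a median of -0.90. Cox6c, a subunit of cytochrome oxidase, was 3.68-fold lower (1.99 to 7.52), at 297 against 80.7 CPM. Of 15 tested glycolysis and hypoxia genes, 2 were at least 2-fold lower, with a median of -0.52 (4 and -0.62 without the astrocyte-marked well), among them the glucose transporter Slc2a1, 3.11-fold lower (1.14 to 11.9), whose log2 ratio was 0.44 in thinned wells. Heat shock genes had a median of 0.10, which became -0.17 with TMM factors. The chaperone Hspa1a, near-identical to Hspa1b, was 6.02-fold higher (3.66 to 10.1) and Hspe1 2.17-fold lower (1.36 to 3.65). Of 17 iron, heme and antioxidant genes, 5 were at least 2-fold higher and none lower, with a median of 0.44, but the astrocyte-marked well held 93.9% of the Gstm1 and 81.3% of the Mt2 counts with WBRT. Without that well 5 were higher and 2 lower, with a median of 0.14. Over all genes then tested 21.6% were higher and 12.9% lower, with a median of 0.23. The iron, heme and antioxidant list holds Hmox1 (264 and 404 CPM) and Slc40a1 (24.4 and 73.4 CPM), which the gate used. The list's values are thus given as a description, and Slc40a1 was among the 5 higher over all gated wells. Gclc, which makes the first step of glutathione synthesis, was 6.25-fold higher (3.60 to 11.1) with 58% of the counts in 1 well, and its fold without the highest well of each plate was 3.52.

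Transcription factors of the lineage and checkpoint genes were nearer to level. Of 16 lineage factors, 1 was at least 2-fold higher, Mef2a, at 36.6 and 88.1 CPM, with a median over the list of -0.11. Cebpb, a factor of inflammatory macrophages, was 1.90-fold lower (1.52 to 2.42) and Sfpi1, the gene of PU.1, 1.77-fold lower (1.24 to 2.57). Of 9 checkpoint and costimulation genes, 2 were at least 2-fold higher, Siglech and Tnfsf9, and 1 lower, Lgals9, which was 2.42-fold lower (1.94 to 3.06), at 1547 against 639 CPM. Of 13 nuclear long noncoding RNAs, 6 were at least 2-fold higher, with a median of 0.94. This list holds Malat1, which the gate used, so its direction is given as a description.

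How the gate shapes the comparison was seen by setting the gated wells beside the others, which come from the same plates. Interferon genes were lower with WBRT in each kind of well: the median was -2.06 in the gated, -2.04 in the Malat1-poor and -0.85 in the 4-gene wells, and -0.97 in the Malat1-retaining BMDM wells. MHC class I genes had medians of -1.81, -0.96, -1.0 and -1.22 in that order. Genes of alternative activation and wound healing did not share a direction. In the gated wells 7 were tested, 4 were at least 2-fold lower and 1 higher, with a median of -1.53. They included the matrix protein Fn1 (73.2 against 22 CPM) and the interleukin-1 antagonist Il1rn (118 against 36.7 CPM). In the Malat1-poor and 4-gene wells the medians were 0.91 and 1.01, and in the Malat1-retaining BMDM wells 1.62. Over all passing microglia wells, where 7.91% of genes were at least 2-fold higher and 7.03% lower, 8 of 13 were higher and 1 lower, with a median of 1.56.

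**Figure D5:**
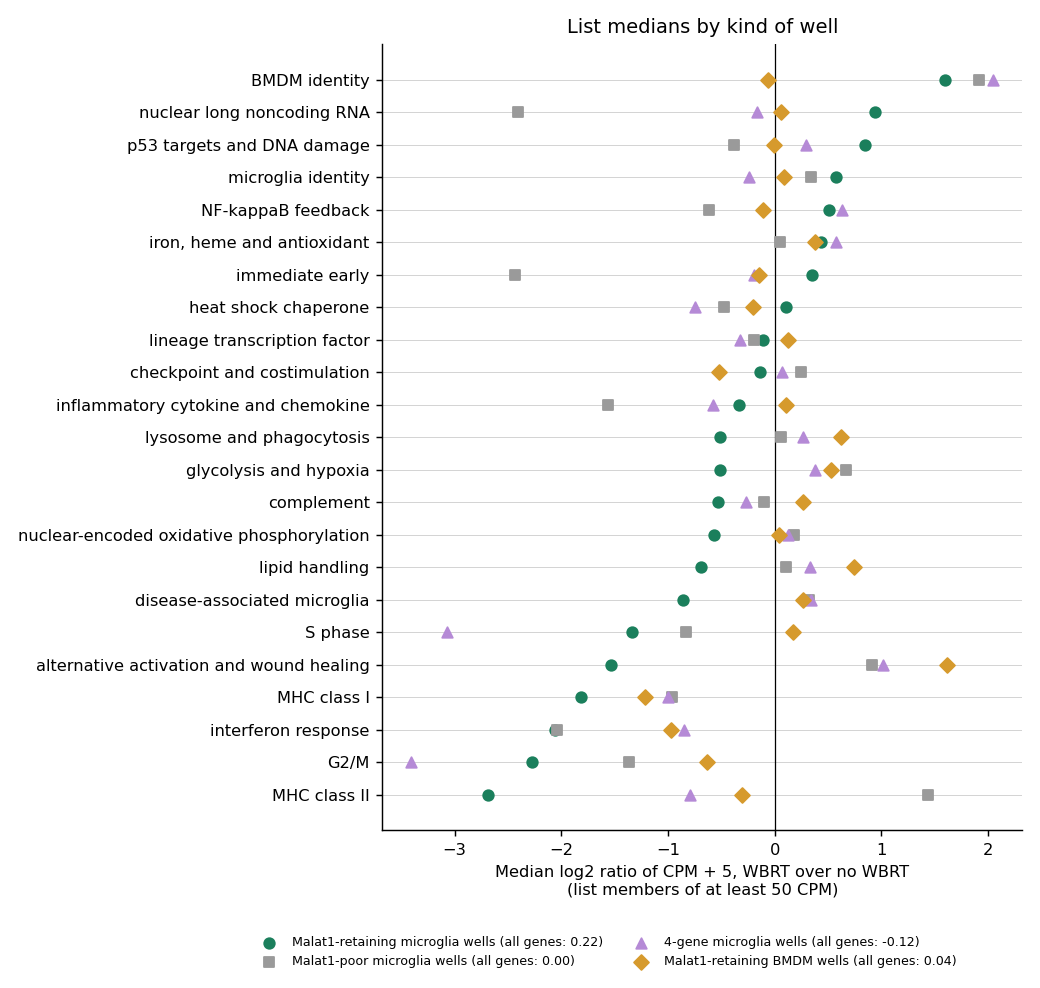
Median log2 ratio of each gene list, WBRT over no WBRT, in 4 kinds of well; the median of all tested genes is given for each in the key. Interferon and MHC class I genes lie left of 0 in each kind, while alternative activation, disease-associated and lipid genes lie left of 0 in the gated wells and right of it in the other 3.

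The disease-associated list also differed between kinds of well, and its median was -0.071 when the limit on Malat1 was dropped and -0.095 when that on the 4 genes was dropped. Its summed level was 77245 and 40019 CPM in the gated wells without and with WBRT, 86628 and 104652 CPM in the Malat1-poor wells, and 84284 and 92006 CPM in the 4-gene wells. The lysosomal protease Ctsd stood at 10280 and 4519 CPM in the gated, 10508 and 13143 CPM in the Malat1-poor, and 11404 and 12173 CPM in the 4-gene wells. Immediate early genes ran the other way, with sums of 32384 and 41738 CPM in the gated, 19705 and 4056 CPM in the Malat1-poor, and 26965 and 23000 CPM in the 4-gene wells. The differences between kinds of well were not tested, since the rule chose the wells by their own counts. The Malat1-poor wells were shallower, with medians of 2240 and 1951 counts and ERCC shares of 15% and 33.0%, and the 4-gene wells had medians of 4351 and 2359 counts and ERCC shares of 7.99% and 30.3%.

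Within the gate, single wells set much of the variation. For each gene the variance over the mean was taken in wells thinned to 1000 UMIs, where the median gene had 0.987 without WBRT and 1.0 with WBRT. Without WBRT the most variable genes were the class II genes Cd74 (31.1), H2-Aa (22.4), H2-Ab1 (19.0) and H2-Eb1 (12.6), through the 1 class II-rich well, followed by Apoe (5.97), Spp1 (3.74), Cxcl13 (3.66) and Il1b (3.51). With WBRT they were Apoe (50.5), Kcnq1ot1 (41.9), the astrocyte genes Slc1a3 (18) and Aldoc (10.3), Grk4 (8.35), Gpr37l1 (8.11), the chemokine Ccl3 (6.42) and the G protein regulator Rgs1 (6.39). The astrocyte-marked well held 97.8% of the Slc1a3, 96.9% of the Aldoc and 97.3% of the Gpr37l1 counts. Cxcl13 was spread more evenly without WBRT, where the top well held 15% of its counts and 74 of 76 wells had at least 1.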

How the data were processed

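Single myeloid cells sorted into 384-well plates were processed by the plate method of Muraro et al., per the labels' protocols, with 1 plate for each of the 4 groups. The authors deposited an estimated count for each gene in each well, which the values show was already corrected for coinciding UMIs: with 4096 possible UMIs the correction gives 100% of values within 0.0051. The build was GRCm38, per the submitters' processing notes; the aligner, the counting and its strand use, and the annotation, not given in the sources used here, were not checked, so overlapping and antisense genes cannot be told apart.

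Counts outside ERCC and mitochondrial rows were summed over the gated wells of a plate and divided by their total to give CPM. Levels carry exact Poisson intervals and folds exact binomial intervals (95%), which treat counts as whole and cover counting error only. Genes of at least 50 CPM in 1 group were compared as the log2 ratio of CPM + 5 and called at 2-fold, with no test, since each group is 1 plate. Gated wells held 1039 to 18920 and 1170 to 16251 counts. Of 585 listed symbols, 545 were found, 8 of them through a synonym, in 23 biology lists and 13 lists of other cell types. No column was left unmapped, the plates share the 384 well names, and 0 of 804 passing wells had identical counts. Doublets were not called.

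Members and lists were chosen with earlier results of these data known. The genes named are the 14 highest and 14 lowest ratios with a UMI in 15% or more of the higher group's wells, intervals that do not overlap and at most 25% of counts in 1 well (ribosomal, mitochondrial and predicted genes left out), at most 4 genes a list by size of the ratio, all microglia identity genes, Cdkn1a and Mki67, and the 8 most variable genes per plate; others were chosen after their values were seen, and some genes that the rule picks are not reported here. Calculations used Python 3.11.15, numpy 2.4.6, scipy 1.17.1, pandas 2.3.3, matplotlib 3.10.9, and edgeR 4.0.16 in R 4.3.3 for TMM factors (0.908 and 1.10) only. The summing and ratio steps were tested on simulated data. Alternatives varied the gate, depth limits, weighting, scaling, pseudocount and filter.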

Additional observations from a re-analysis of the deposited data

Results flagged for a closer look

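For 7 named genes the log2 ratio of WBRT over no WBRT was at least 1 in size and of opposite sign in the gated microglia wells and in the Malat1-retaining wells of the BMDM plates. Each plate is 1 library, so these differences were not tested.

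Genes lower in the gated wells and higher in the BMDM wells came first. Abcg1, which exports cholesterol, had a log2 ratio of -2.28 in the gated wells (234 to 44.0 CPM) and 1.01 in the BMDM wells (111 to 228 CPM). Fcgr2b, the inhibitory antibody receptor, had -2.92 (199 to 22 CPM) and 1.57 (149 to 452 CPM). Fn1, fibronectin, had -1.53 (73.2 to 22 CPM) and 1.91 (204 to 779 CPM). The gated level of Fn1 with WBRT rested on 3 counts, 38.9% of its counts without WBRT were in 1 well, and the Poisson intervals of the 2 levels overlapped. Il1rn, the interleukin-1 receptor antagonist, had -1.56 (118 to 36.7 CPM) and 1.39 (97.2 to 264 CPM). Vegfa, the endothelial growth factor, had -1.80 (89.4 to 22 CPM) and 1.54 (105 to 315 CPM). All 3 gated counts of Vegfa with WBRT were in the astrocyte-marked well, without which it had 0 counts.

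Cxcr2, a chemokine receptor best known from neutrophils, had 1.35 in the gated wells (69.1 to 184 CPM) and -1.43 in the BMDM wells (122 to 42.2 CPM). Siglech had 1.24 (250 to 595 CPM) and -1.96 (98.3 to 21.7 CPM).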

How the results depend on the processing

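Of 552 list medians over 24 settings, 494 moved little, 52 moved and 6 changed sign from a called value; of 2919 values of named genes, 356 moved and 22 changed sign. The counts of 997 higher and 554 lower genes became 418 and 366 without the Malat1 limit, 519 and 346 without the 4-gene limit, 304 and 270 without any gate, 610 and 859 with TMM factors, 1901 and 1164 at 20 CPM, 441 and 280 at 100 CPM, 2804 and 2012 with no filter, and 556 and 284 with intervals that do not overlap; thinned wells gave 1270 and 1164. The interferon median was -1.12 without the 4-gene limit, -1.47 without the gate, -2.99 in thinned wells, -3.04 at 100 CPM, -2.88 without the deepest 5% of wells and -3.13 without wells holding other cell type lists. The disease-associated median was -0.071 without the Malat1 limit, -0.095 without the 4-gene limit and 0.14 without the gate. The MHC class II median was -2.08 and -0.69 with Malat1 limits of 500 and 3000 CPM, -0.24 without one, -0.87 without the gate, -2.01 with wells weighted alike, -1.23 without wells holding other cell type lists, -0.22 without the class II-rich well and -3.29 in wells of at least 5000 counts. The G2/M median was -1.51 and -3.55 with minimums of 500 and 3000 counts, -0.37 with a Malat1 limit of 3000 CPM, -1.30 without one, -1.47 without the 4-gene limit, -1.29 without the gate, -1.04 with wells weighted alike, -1.36 in thinned wells, -1.45 with a pseudocount of 20, -1.15 at 20 CPM and with no filter, -0.57 at 100 CPM and -3.52 in wells of at least 5000 counts. The cause was not tested.

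Among list medians of at least 1 in size, 3 changed sign. The alternative activation median was 0.32 without the Malat1 limit, 0.97 without the 4-gene limit and 1.56 without the gate. The BMDM identity median was -0.020 at 20 CPM and -0.58 with no filter, and the S phase median 0.60 at 100 CPM. Smaller list medians changed sign too. Without the gate the glycolysis median was 0.65, lipid 0.23, disease-associated 0.14, oxidative phosphorylation 0.025, immediate early -0.41 and heat shock -0.23. Without the Malat1 limit the lysosome median was 0.063, NF-kappaB feedback -0.049 and nuclear noncoding RNA -0.017. The checkpoint and lineage factor medians reached 0.021 and 0.043. Without the Malat1 limit Fn1 was at 2.67 and Spp1 at 0.39. Without the 4-gene limit Fn1 was at 0.97 and Il1rn at 1.78. Without the gate Apoc1 was at 0.11, Cxcr2 at -0.076, Fn1 at 2.30, Il1rn at 1.14 and Spp1 at 0.37. In thinned wells Mki67 was at 0.18, Pvt1 at -3.15 and Slc2a1 at 0.44. Without the deepest 5% of wells Cnp was at -0.10, Mt3 and Slc1a2 at -0.56 and Slc1a3 at -0.83. Without wells holding other cell type lists Mt3 and Slc1a2 were at -0.56 and Slc1a3 at -1.47. Without the astrocyte-marked well Mt3 and Slc1a2 were at -0.49 and Slc1a3 at -1.06.

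The settings without the astrocyte-marked well, without the class II-rich well, without wells with fewer than 3 markers, with wells of at least 5000 counts only and with intervals that do not overlap were chosen after seeing the data. Depth limits low genes most: 1 count was 7.34 CPM with WBRT, and genes under 22 CPM there were below the limit that a count of 0 allows. No paired analysis was possible because each group is 1 plate.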

Other observations

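Across gated wells, immediate early and NF-kappaB feedback genes went together in part. The Spearman correlation of their summed CPM was 0.54 over 76 wells without WBRT and 0.67 over 22 wells with WBRT, and 0.23 over 43 and 0.31 over 15 wells of at least 5000 counts. Immediate early and disease-associated sums had correlations of -0.57 and 0.02, and of -0.43 and 0.15 in the wells of at least 5000 counts. With WBRT it was -0.12 without the astrocyte-marked well. The wells of a plate share 1 library, differ in depth, and their sums share 1 total, so these are descriptions.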
